A study of Homo sapiens with 6 samples.

Results

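Mitochondria carry their own ribosome, which translates the few proteins encoded by mitochondrial DNA, all of them inner-membrane subunits of the respiratory chain and ATP synthase. Its RNA comes from the mitochondrial genome, but its proteins are encoded by nuclear genes, made in the cytosol and imported. Genes of the large subunit are named MRPL and genes of the small subunit MRPS, and the particle carries many proteins with no bacterial relative. The genes described here are those whose symbol is MRPL or MRPS followed by digits and at most 1 letter from A to C, without pseudogenes. RefSeq lists 77 such protein-coding genes, and 74 of them had a transcript cluster (an array probe set for a whole gene) annotated with that symbol alone, 48 MRPL and 26 MRPS genes out of 22413 named genes in all. MRPL30, MRPS6 and MRPS16 were represented only by clusters that carry several symbols, and are not analysed here.

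The 74 genes were compared between 2 groups of 3 Affymetrix whole-transcript arrays. A549 cells, an established line from a human lung adenocarcinoma, received either a pool of 2 siRNAs that target CONCR, a long noncoding RNA, or a control siRNA, at 40 nM and in 2 rounds 24 h apart. The study asked what CONCR does, with sister chromatid cohesion in its title. The series calls the knockdowns independent without stating whether cultures were separate. The p-values therefore weigh each difference against the scatter of these samples, part of which may be technical. CONCR itself (gene symbol DDX11-AS1) had log2 signals of 4.23, 4.49 and 4.64 in CONCR siRNA samples, against 4.71, 4.71 and 4.64 in control samples. The log2 difference was -0.23 (SE 0.10) with a limma adjusted p of 0.42, so this gene does not check the labels.

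Of the whole series, 32540 of 67528 transcript clusters had a log2 signal above 4 on at least 3 arrays and were tested, among them 15498 named genes. All arrays had nearly the same signal distribution, with medians over clusters from 3.83 to 3.89. Keratins 8 and 18, markers of epithelial cells, had mean log2 signals of 11.3 and 11.6. The epithelial keratin 7 was lower at 6.01, and the epithelial adhesion gene EPCAM was below the filter at 2.78. The epithelial cadherin CDH1 had log2 signals of 8.07, 7.91 and 8.07 in CONCR siRNA samples, against 8.27, 8.23 and 8.20 in control samples. Its groups stood apart at -0.22 (SE 0.06), with a limma adjusted p of 0.18. Of markers of other cell types, 3 of 5 fibroblast genes (COL1A1, COL1A2 and PDGFRB), 1 of 5 leukocyte genes (CD79A) and 3 of 6 endothelial genes (CDH5, CLDN5 and VWF) were above the filter, with mean log2 signals from 4.22 to 5.85. DCN, LUM, PTPRC, CD3E, CD14, LYZ, PECAM1, KDR and TEK were below it. No marker passed the test, and what part, if any, such cells or the CDH1 difference have in the results was not tested. The values are RNA signals scaled to equal distributions, so fewer cells with an RNA and less of it per cell cannot be told apart.

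Part of the genes also have short letter strings in common in their promoters. RefSeq windows of 300 bases around the start of the gene, the last 50 of them past the start (GRCh38.p14), were at hand for 66 of the 74 genes. The letters AAGATGGC, known as the core of the binding site of the transcription factor YY1, occurred on either strand in 20 of the 66 windows (30.3%), against 3.91% of 15843 protein-coding windows. This share was 29.3% among 41 MRPL and 32.0% among 25 MRPS windows. Of the 21 matches, 17 (81.0%) read in the direction of the gene and 15 (71.4%) began at or after the start site, against 73.0% and 60.7% of the matches in all protein-coding windows. The letters contain ATG, the start codon, and whether translation begins there was not examined.

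The letters CCGGAAGT, bound by ETS factors such as GABPA, were in 16.7% of the 66 windows against 6.19% of all protein-coding ones. The motif of NRF1, a regulator of mitochondrial genes, was in 10.6% against 8.58%, and the E-box CACGTG in 9.09% against 8.88%. None of the 4 letter strings contains another. A match is a description of the sequence and says nothing of binding in A549 cells. The windows of the genes with the lowest and the highest log2 change among those with a window are shown to set these letters in their context, with each match in capitals.
MRPS10, chr6:42217812-42218111, minus strand: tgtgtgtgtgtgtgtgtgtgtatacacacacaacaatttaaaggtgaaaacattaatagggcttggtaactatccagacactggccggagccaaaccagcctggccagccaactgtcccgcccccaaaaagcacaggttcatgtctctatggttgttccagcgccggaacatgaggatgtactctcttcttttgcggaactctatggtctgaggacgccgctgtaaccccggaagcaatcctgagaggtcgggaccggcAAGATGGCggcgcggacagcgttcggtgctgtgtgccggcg
MRPL47, chr3:179604589-179604888, minus strand: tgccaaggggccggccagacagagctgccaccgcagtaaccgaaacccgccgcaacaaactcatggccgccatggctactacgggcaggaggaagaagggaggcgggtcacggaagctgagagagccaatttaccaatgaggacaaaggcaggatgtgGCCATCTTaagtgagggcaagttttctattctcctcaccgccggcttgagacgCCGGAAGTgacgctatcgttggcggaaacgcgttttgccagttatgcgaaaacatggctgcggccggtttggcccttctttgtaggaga

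MRPS10 carries the YY1 letters in the direction of the gene, 9 bases past its start, and MRPL47 carries them on the other strand, at position -92 from its start, upstream of the ETS letters. In other genes the same 8 letters stood in varied surroundings, as 28-base windows in the direction of the gene show, with the YY1 letters in capitals.
MRPL50, chr9:101398578-101398605, minus strand: gatctcatcgAAGATGGCggcgcgatct
MRPL42, chr12:93467512-93467539, plus strand: ggattgaaacAAGATGGCgggttcgtgg
MRPL36, chr5:1799855-1799882, minus strand: cccccccgccGCCATCTTccttcctggc
MRPS30, chr5:44808950-44808977, plus strand: atcgcgggcaAAGATGGCggcggccagg
MRPS18A, chr6:43687765-43687792, minus strand: taggtttttgAAGATGGCggccctcaag
MRPL46, chr15:88467363-88467390, minus strand: gggagaacgaAAGATGGCggcgcccgta

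Of these 6 windows, 5 hold the letters in the direction of the gene and MRPL36 holds them on the other strand. The median log2 change after CONCR siRNA was 0.03 over the 20 genes with the YY1 letters and 0.0037 over the 46 without them. The median of all tested genes was 0.01. For the ETS letters the medians were 0.04 over 11 genes with them and -0.0042 over 55 without. For the NRF1 motif they were 0.03 over 7 and 0.0084 over 59, and for the E-box 0.06 over 6 and 0.0037 over 60. Differences by motif were not tested.

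Many of the genes also lie head to head with another gene. A start site of another protein-coding gene on the opposite strand, pointing away, lay within 1000 bases for 17 of the 66 genes (25.8%), against 10.3% of all protein-coding genes with a window. The large-subunit gene MRPL46 and the small-subunit gene MRPS11 form such a pair, 320 bases apart. MRPS12 lies 181 bases from SARS2, which encodes the mitochondrial seryl-tRNA synthetase, and MRPL49 lies 49 bases from FAU, which encodes a protein of the cytosolic ribosome. MRPL46 had log2 signals of 7.02, 7.06 and 7.10 in CONCR siRNA samples, against 7.09, 7.08 and 7.02 in control samples. MRPS11 had 7.66, 7.69 and 7.58 in CONCR siRNA samples, against 7.73, 7.76 and 7.71 in control samples. The groups overlapped for MRPL46 and stood apart for MRPS11. The log2 differences of the pair were -0.0047 (SE 0.05) and -0.09 (SE 0.05), and neither passed the test.

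Across the whole group, the RNA of the 74 nuclear genes for mitochondrial ribosomal proteins differed little between the 2 conditions. All 74 genes passed the signal filter, the dimmest by a small margin, and 0 of 74 passed an adjusted p of 0.05 in limma in either direction. Over all tested genes 2.61% passed, 2.01% lower and 0.6% higher (1.88% over all clusters). At an unadjusted p under 0.05 there were 11 of 74 (14.9%), 7 with a negative and 4 with a positive log2 change, against 14.9% of all tested genes (8.84% and 6.04%). For 9 genes every CONCR siRNA array was below every control array, and for 12 genes above. Over all tested genes this held for 12.8% and 11.7% (24.4% in either direction). These shares are near the background, and the count of calls is 0.

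The log2 changes ran from -0.34 for MRPL35 to 0.20 for MRPL47, that is from 1.27-fold lower to 1.15-fold higher on the RMA scale. Their median was 0.02 and their quartiles -0.04 and 0.08, against a median of 0.01 and quartiles of -0.06 and 0.07 over all tested genes. Of the 74 genes, 35 had a negative and 39 (52.7%) a positive sign, and 54 (73.0%) lay within 0.1 of 0. Over all tested genes 54.9% had a positive sign and 68.6% lay within 0.1 of 0, the shares to set beside the sign counts below. A p above the threshold does not show that a gene stayed the same. The 95% confidence intervals give a range for each change on the RMA scale. They were made gene by gene, so the 95% does not hold for all 74 genes together. They also rest on the scatter of these samples, part of which may be technical. All 74 intervals lay between -0.50 and 0.35, so a change beyond 1.42-fold lower or 1.28-fold higher was outside each of them. The median SE was 0.06.

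**Figure D1:**
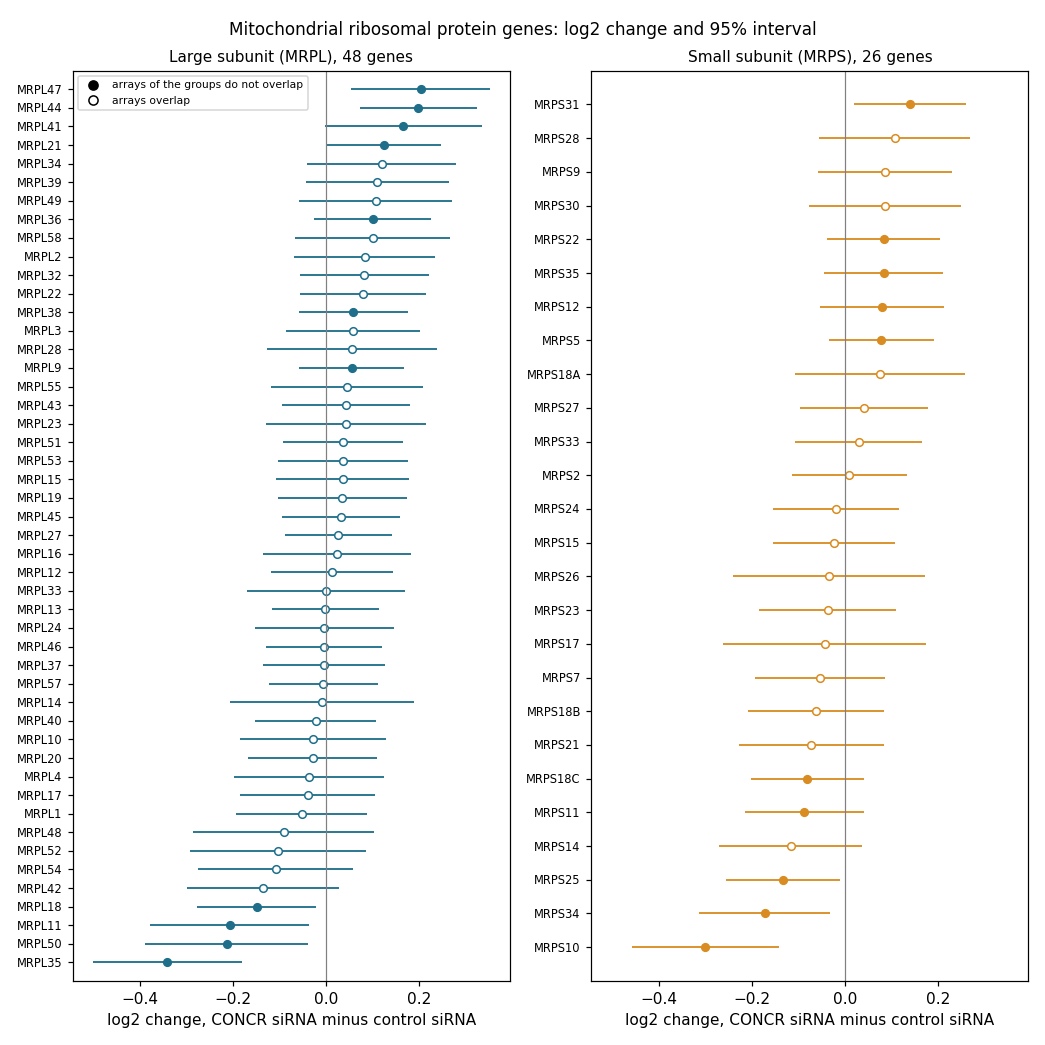
Log2 change of each of the 74 genes (x axis, CONCR siRNA minus control siRNA) with its 95% confidence interval as a line, MRPL genes on the left and MRPS genes on the right, sorted by change (3 arrays per group). Filled points are the 21 genes whose arrays do not overlap between groups, and all intervals lie between -0.50 and 0.35.

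Among the large-subunit genes not assigned to a landmark of the particle here were both the lowest and several of the higher values. MRPL35, a relative of bacterial ribosomal protein L35, had log2 signals of 6.47, 6.42 and 6.34 in CONCR siRNA samples, against 6.65, 6.82 and 6.79 in control samples. Each CONCR siRNA array was below each control array. The log2 difference of MRPL35 was -0.34 (SE 0.07, 95% confidence interval -0.50 to -0.18), with a limma adjusted p of 0.066. MRPL50, a protein with no bacterial relative, had 6.06, 5.87 and 6.10 in CONCR siRNA samples, against 6.20, 6.27 and 6.20 in control samples. Its arrays did not overlap either, and its difference was -0.21 (SE 0.07, limma adjusted p = 0.28).

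For 3 other such genes all CONCR siRNA arrays were above the controls. MRPL41, a mitochondria-specific protein also studied for a part in apoptosis, had 6.70, 6.89 and 6.74 in CONCR siRNA samples, against 6.68, 6.53 and 6.62 in control samples. MRPL21 had 8.80, 8.82 and 8.82 in CONCR siRNA samples, against 8.67, 8.75 and 8.65 in control samples. MRPL36 had 8.46, 8.48 and 8.41 in CONCR siRNA samples, against 8.40, 8.32 and 8.33 in control samples. The gap between the groups of MRPL41 and of MRPL36 was small, with the lowest CONCR siRNA array just above the highest control array. Their log2 differences were 0.17 for MRPL41, 0.12 for MRPL21 and 0.10 for MRPL36, with limma adjusted p from 0.38 to 0.53. MRPL34, among the dimmest genes with a mean log2 signal of 4.89, was at 0.12 (SE 0.07) with overlapping arrays.

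The polypeptide exit tunnel, through which the new chain leaves toward the inner membrane, was represented by 8 genes. Of these, 6 had a positive sign and 2 a negative sign, the median was 0.06, and 0 passed the test. MRPL47, a relative of bacterial L29 at the rim of the tunnel, had log2 signals of 7.45, 7.40 and 7.37 in CONCR siRNA samples, against 7.10, 7.24 and 7.26 in control samples. MRPL44, a tunnel protein with a ribonuclease III-like fold and a known disease gene of heart muscle, had 7.99, 8.02 and 7.92 in CONCR siRNA samples, against 7.75, 7.78 and 7.81 in control samples. The groups stood apart for both genes. Their log2 differences were 0.20 (SE 0.06, 95% confidence interval 0.05 to 0.35) and 0.20 (SE 0.05, 95% confidence interval 0.07 to 0.32), with limma adjusted p of 0.23 for MRPL47 and 0.16 for MRPL44. MRPL45, which holds the ribosome to the inner membrane, was at 0.03 (SE 0.05), and MRPL39, MRPL22, MRPL23, MRPL24 and MRPL17 ran from 0.11 down to -0.04, all with overlapping arrays.

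The stalk that recruits translation factors (named L7/L12 in bacteria) was represented by 5 genes, 3 with a negative sign, with a median of -0.03. MRPL11, at the base of this stalk, had log2 signals of 6.54, 6.60 and 6.45 in CONCR siRNA samples, against 6.62, 6.82 and 6.78 in control samples. Its arrays did not overlap, by a small margin at control siRNA replicate 1, and its difference was -0.21 (SE 0.07, limma adjusted p = 0.28). MRPL12, the flexible stalk protein, which is also known to bind the mitochondrial RNA polymerase, was at 0.01 (SE 0.06). The remaining stalk genes MRPL54, MRPL10 and MRPL53 were at -0.11, -0.03 and 0.04, and the L1 stalk genes MRPL1 and MRPL9 at -0.05 and 0.05.

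The central protuberance, the crown of the large subunit that touches the small subunit and the tRNAs, was represented by 9 genes, 5 with a negative and 4 with a positive sign (median -0.0047, 0 past the test). MRPL18, a relative of the bacterial protein that binds 5S rRNA, had log2 signals of 7.33, 7.35 and 7.27 in CONCR siRNA samples, against 7.52, 7.44 and 7.44 in control samples. The groups stood apart, and the difference was -0.15 (SE 0.05, limma adjusted p = 0.31). MRPL58, a peptidyl-tRNA hydrolase built into the ribosome that can free stalled chains, had 9.68, 9.65 and 9.61 in CONCR siRNA samples, against 9.54, 9.67 and 9.44 in control samples. Its arrays overlapped at control siRNA replicate 2, and the difference was 0.10 (SE 0.07). MRPL38 was at 0.06 (SE 0.05), with the CONCR siRNA arrays just above the controls.

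**Figure D2:**
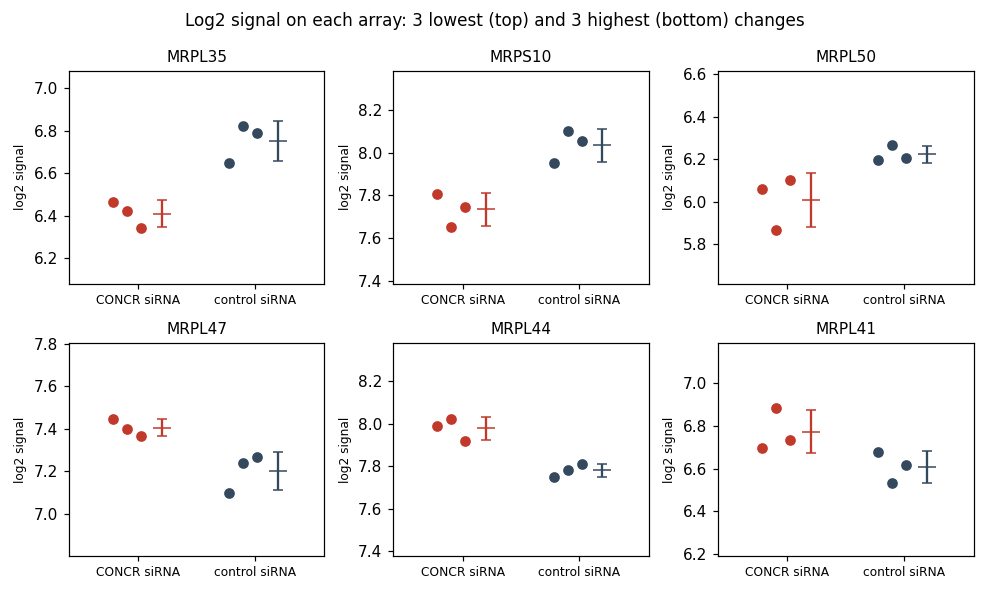
Log2 signal (y axis, each panel spanning 1 log2 unit) on each array for the 3 genes with the lowest log2 change (top) and the 3 with the highest (bottom), CONCR siRNA in red and control siRNA in dark blue. The short bar with caps is the mean ± SD of 3 arrays. In all 6 genes the arrays of the groups do not overlap, and the separation is widest for MRPL35 and MRPS10.

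Of the small subunit, the head held the second lowest value of the whole group. MRPS10, a head protein related to bacterial S10, had log2 signals of 7.81, 7.65 and 7.75 in CONCR siRNA samples, against 7.95, 8.10 and 8.05 in control samples. Each CONCR siRNA array was below each control array. The log2 difference of MRPS10 was -0.30 (SE 0.07, 95% confidence interval -0.46 to -0.14), with a limma adjusted p of 0.092. MRPS31, a mitochondria-specific head protein, had 6.61, 6.61 and 6.58 in CONCR siRNA samples, against 6.41, 6.47 and 6.50 in control samples. MRPS35, also of the head, had 9.52, 9.40 and 9.42 in CONCR siRNA samples, against 9.36, 9.38 and 9.35 in control samples. The groups stood apart for both, and their differences were 0.14 (SE 0.05, limma adjusted p = 0.31) and 0.08 (SE 0.05, limma adjusted p = 0.63). The 8 head genes were split evenly, 4 negative and 4 positive, with a median of 0.0050.

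The body of the small subunit was represented by 16 genes, 10 with a negative and 6 with a positive sign (median -0.04, 0 past the test). MRPS34, needed for a stable small subunit and a disease gene of the respiratory chain, had log2 signals of 8.70, 8.73 and 8.58 in CONCR siRNA samples, against 8.88, 8.82 and 8.82 in control samples. MRPS25 had 6.18, 6.16 and 6.16 in CONCR siRNA samples, against 6.25, 6.35 and 6.30 in control samples. MRPS18C, a relative of bacterial S18, had the dimmest cluster of the group, with 4.16, 4.10 and 4.15 in CONCR siRNA samples, against 4.17, 4.24 and 4.24 in control samples. In these 3 genes no CONCR siRNA array reached a control array, though for MRPS18C the gap was small. The differences were -0.17 (SE 0.06) for MRPS34, -0.13 (SE 0.05) for MRPS25 and -0.08 (SE 0.05) for MRPS18C, with limma adjusted p from 0.28 to 0.61.

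On the other side of 0 in the body were MRPS12, MRPS5 and MRPS22. MRPS12, next to the decoding centre, had log2 signals of 5.97, 5.98 and 5.99 in CONCR siRNA samples, against 5.97, 5.91 and 5.83 in control samples. MRPS5 had 8.67, 8.70 and 8.70 in CONCR siRNA samples, against 8.59, 8.62 and 8.63 in control samples. MRPS22, a disease gene of mitochondrial translation, had 5.10, 5.05 and 5.04 in CONCR siRNA samples, against 4.96, 5.03 and 4.96 in control samples. The groups did not overlap for these 3 genes, narrowly so for MRPS12 and MRPS22. Each difference was 0.08 (SE 0.05 to 0.06), with limma adjusted p from 0.60 to 0.67.

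For 2 genes several clusters were annotated. MRPS14, of the head, was at -0.12 (SE 0.06) on its brighter cluster and at 0.13 (SE 0.09) on its dimmer one, so the sign of its change depends on the probes, and neither passed the test. MRPS18B had 7 clusters, 6 of them copies on alternate haplotypes with equal values at -0.06 (SE 0.06), and the remaining one was also at -0.06.

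Large and small subunit were then set side by side. The median log2 change was 0.03 over 48 MRPL genes (21 negative, 27 positive) and -0.02 over 26 MRPS genes (14 negative, 12 positive), a difference of 0.05. On single arrays the mean signal of MRPL genes was 6.94, 6.92 and 6.87 in CONCR siRNA samples, against 6.89, 6.92 and 6.89 in control samples. The mean of MRPS genes was 7.08, 7.05 and 7.03 in CONCR siRNA samples, against 7.04, 7.10 and 7.06 in control samples. Both sets of arrays overlapped. The MRPL mean minus the MRPS mean was -0.14, -0.14 and -0.16 in CONCR siRNA samples, against -0.15, -0.18 and -0.18 in control samples. These overlapped at control siRNA replicate 1, and the group means differed by 0.02, against SDs of 0.01 and 0.02 within the groups. No p is given for such a mean over chosen genes.

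The gene symbols do not fully follow the structure of the particle. The proteins of MRPS30 and MRPS18A sit in the large subunit, and moving these 2 genes there gave 50 large-subunit and 24 small-subunit genes. MRPS30 was at 0.08 (SE 0.07) and MRPS18A at 0.07 (SE 0.08), so the medians became 0.03 and -0.03, a difference of 0.06. By this assignment the large-subunit mean minus the small-subunit mean was -0.23, -0.22 and -0.25 in CONCR siRNA samples, against -0.26, -0.27 and -0.28 in control samples. The arrays no longer overlapped, by a small margin between CONCR siRNA replicate 3 (-0.2501) and control replicate 1 (-0.2568). The group means differed by 0.03. The difference of the medians by symbol depended on single arrays. Against 0.0507 with all arrays, it was 0.0254 without CONCR siRNA replicate 1, 0.0217 without CONCR siRNA replicate 2, 0.0259 without control replicate 1 and 0.0215 without control replicate 2. The small-subunit median itself was above 0 without CONCR siRNA replicate 3 (0.0052) or control replicate 2 (0.0044), and the large-subunit median was lowest without CONCR siRNA replicate 2 (0.0083). The median of all 74 genes was -0.00035 without CONCR siRNA replicate 1.

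**Figure D3:**
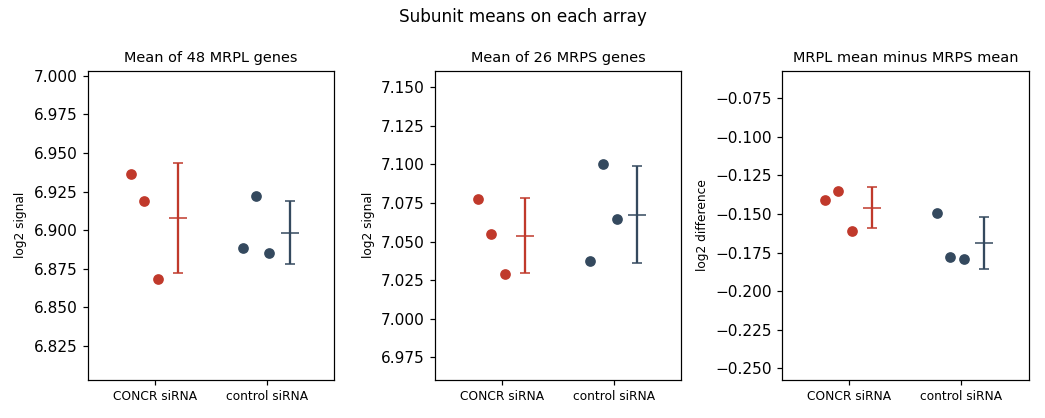
Mean log2 signal of the MRPL genes (left) and the MRPS genes (middle), and the MRPL mean minus the MRPS mean (right), on each array with CONCR siRNA (red) and control siRNA (dark blue), with the mean ± SD of 3 arrays as a capped bar. Each y axis spans 0.2 log2 units and does not start at 0, and in every panel the arrays of the groups overlap.

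The genes were also split into those counted here as having a bacterial relative and the rest, with no test between them. The rest include MRPS18A and MRPS18B, which share the S18 name with MRPS18C, a gene counted among the first kind. They also include the hydrolase MRPL58, so the rest are not a list of proteins found only in mitochondria. The split is approximate, and medians under another assignment were not computed. Among 42 genes of the first kind 21 had a negative and 21 a positive sign, with a median of 0.0037. Among 32 of the second kind 14 were negative and 18 positive, with a median of 0.03. Neither kind held a call. Within the small subunit, assigned by structure, the median was -0.04 over 13 genes of the first kind (9 negative, 4 positive). It was 0.03 over 11 of the second kind (5 negative, 6 positive). Within the large subunit the medians were 0.03 over 29 genes (12 negative, 17 positive) and 0.04 over 21 (9 negative, 12 positive).

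The cytosolic ribosome is the closest counterpart. Among 48 measured genes of its proteins, 40 had a negative sign and 8 a positive sign, with a median of -0.06, against 35 negative and 39 positive signs and a median of 0.02 among the mitochondrial ones. Another 31 of the 79 cytosolic genes had no cluster annotated with their symbol alone. No cytosolic gene passed the test in limma (0 of 48), against 2.61% of all tested genes, and 1 was at an unadjusted p under 0.05, against 14.9%. For 10 of the 48 every CONCR siRNA array was below every control array and for 0 above, against 12.8% and 11.7% of all tested genes. The smallest p in the list were those of RPS23 and RPS29, RPS23 being the lowest at -0.17 (SE 0.05, limma adjusted p = 0.18) and RPS29 at -0.15 (SE 0.07, limma adjusted p = 0.40). The difference between the 2 ribosomes was not tested.

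**Figure D4:**
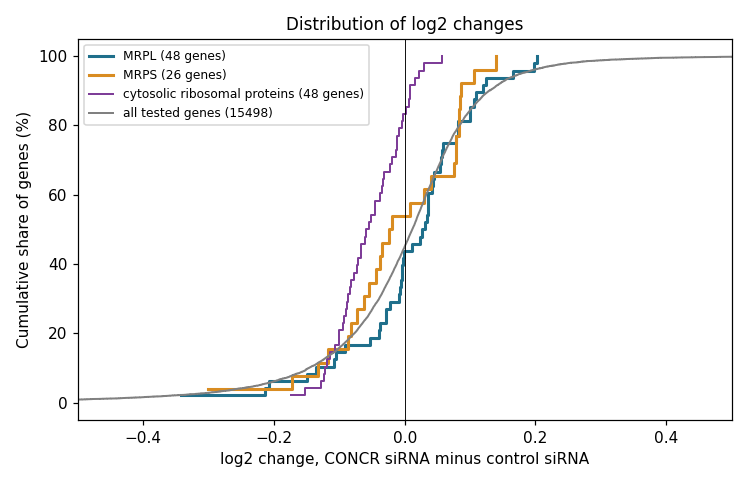
Cumulative share of genes (y axis, percent) by log2 change (x axis, CONCR siRNA minus control siRNA, shown from -0.5 to 0.5) for MRPL genes, MRPS genes, cytosolic ribosomal protein genes and all 15498 tested genes. The MRPL and MRPS curves run close to that of all genes, with medians of 0.03, -0.02 and 0.01, and the cytosolic curve lies to the left with a median of -0.06.

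The proteins work with a wider set of nuclear-encoded factors. Over 6 lists of such genes 2 of 92 tested genes passed (2.17%), against 2.61% of all tested genes, so the share is near the background. Both are on the list of assembly factors. TFB1M, which dimethylates the small-subunit rRNA during assembly, had log2 signals of 4.28, 4.23 and 4.31 in CONCR siRNA samples, against 4.72, 4.81 and 4.76 in control samples. It fell by 0.49 (SE 0.05, 1.40-fold lower, limma adjusted p = 0.0099), and its signal lies close to the filter of 4. MIEF1, a gene of mitochondrial fission whose upstream reading frame encodes a small protein that joins the assembling large subunit, had 5.07, 5.17 and 5.13 in CONCR siRNA samples, against 5.47, 5.47 and 5.42 in control samples. It fell by 0.33 (SE 0.05, 1.26-fold lower, limma adjusted p = 0.032). The groups stood well apart for both genes. Of 29 measured genes on this list 2 were lower, 0 were higher and 27 did not pass, and their median was 0.03. Over all tested genes 2.01% were lower and 0.6% higher. MALSU1, a partner of that small protein, was at -0.12 (SE 0.05, limma adjusted p = 0.42), and NSUN4, an rRNA methyltransferase, at 0.14 (SE 0.07, limma adjusted p = 0.46).

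Neither call held in every fit without 1 array, and such a fit also has less power because fewer arrays remain. The limma adjusted p of TFB1M was above the threshold when CONCR siRNA replicate 1 (0.053) or 2 (0.059) was left out, and when control replicate 2 (0.061) or 3 (0.053) was. For MIEF1 it was above the threshold without any 1 of the 6 arrays, from 0.078 without control replicate 1 to 0.13 without control replicate 2. The log2 change stayed between -0.51 and -0.46 for TFB1M and between -0.36 and -0.31 for MIEF1 over the alternatives in which they were tested.

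Subunits of the mitochondrial ribosome that bear other names gave no call among 4 measured (1 at an unadjusted p under 0.05 in limma). PTCD3, a pentatricopeptide protein of the small subunit near the mRNA entrance, had log2 signals of 7.25, 7.11 and 7.22 in CONCR siRNA samples, against 7.37, 7.51 and 7.44 in control samples. All CONCR siRNA arrays were below the controls and the difference was -0.25 (SE 0.06, limma adjusted p = 0.14), while CHCHD1 was at -0.11 (SE 0.06), DAP3 at 0.04 and GADD45GIP1 at 0.04.

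No gene passed in the remaining lists, which were drawn broadly. The list of translation factors (14 genes) includes OXA1L, LRPPRC and SLIRP. That of aminoacyl-tRNA synthetases (21 genes) includes the amidotransferase subunits GATB, GATC and QRSL1. That of mitochondrial DNA transcription and RNA processing (17 genes) includes the replication genes POLG, POLG2 and TWNK. The last holds 7 nuclear regulators of mitochondrial biogenesis. At an unadjusted p under 0.05 in limma there were 5, 1, 1 and 1 genes in these lists, against 14.9% of all tested genes. In 4 of the 14 genes of the translation factor list all CONCR siRNA arrays were above the controls, and in 1 all were below, against 11.7% and 12.8% of all tested genes. MTFMT, which formylates the initiator methionyl-tRNA, had log2 signals of 7.87, 7.75 and 7.64 in CONCR siRNA samples, against 7.41, 7.47 and 7.46 in control samples. Its groups stood apart at 0.30 (SE 0.07, limma adjusted p = 0.098), and MTRF1L, a release factor, was at 0.19 (SE 0.06, limma adjusted p = 0.25). MTFMT was called higher in 4 of 14 alternatives, with a limma adjusted p from 0.026 to 0.048 in these. OXA1L, which inserts new chains into the inner membrane, was at 0.15 (SE 0.06), and MRRF, the ribosome recycling factor, at -0.14.

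In the remaining lists the genes with the smallest p were FARS2 at -0.16 and CARS2 at 0.10 among the synthetases, and PNPT1, a mitochondrial RNA-degrading enzyme, at -0.16 and MTERF2 at -0.18 among transcription and RNA genes. Among the regulators PPRC1, a coactivator of the PGC-1 family, was at -0.16 and the nuclear receptor ESRRA at 0.14. Limma adjusted p for these 6 genes ran from 0.28 to 0.51. The regulators whose letters were searched in the promoters were at -0.07 (SE 0.07) for YY1 and 0.06 (SE 0.07) for GABPA. NRF1 had no cluster annotated with its symbol alone, as had none of 15 mitochondrially encoded genes, which are not analysed here.

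**Figure D5:**
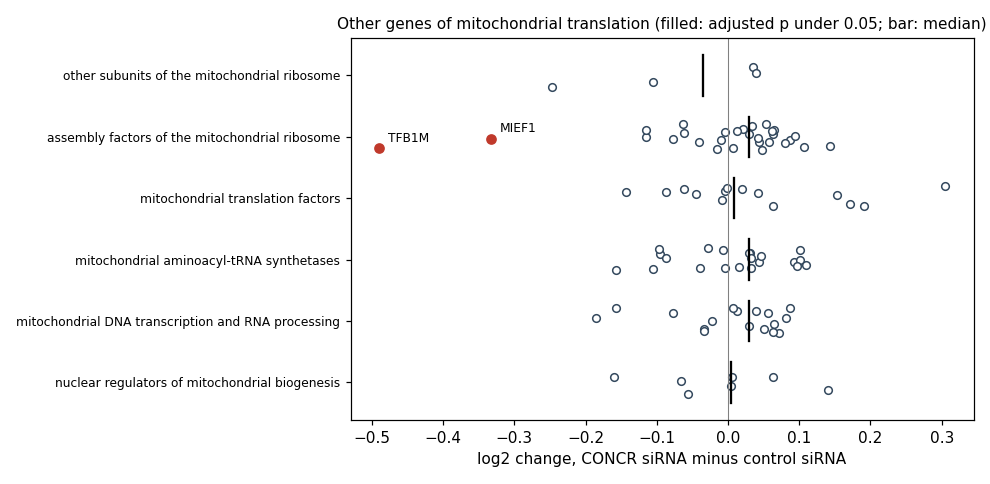
Log2 change (x axis, CONCR siRNA minus control siRNA) of each measured gene in 6 lists of mitochondrial translation, 1 point per gene, with the list median as a vertical bar. Filled points mark the 2 genes with a limma adjusted p under 0.05, TFB1M and MIEF1, and the height of a point within its row has no meaning.

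The threshold for the ribosomal proteins was near for 2 genes. MRPL35 and MRPS10 were called lower with a limma adjusted p between 0.015 and 0.043 when only brighter clusters were tested, when variances followed signal with robust estimation, or when 1 cluster per named gene was fitted alone, and were not called in the other alternatives. MRPL44 was called higher, at 0.042, in the first of these. PTCD3 was called lower in the first and the last, at 0.039 and 0.043, and the cytosolic RPS23 in the first, at 0.048.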

How the data were processed

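Total RNA of 3 CONCR siRNA and 3 control siRNA samples was hybridised, 1 array each. The deposited values are log2 signals per probe set, made by RMA with Affymetrix Power Tools per the submitters' processing notes. Their versions and the array's genome build are not given in the sources used here. Quantile normalization within RMA makes arrays nearly equal in distribution, so a change in total RNA per cell cannot be seen. Arrays have no read depth, and their number limits precision.

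Of 70523 probe sets, 2995 control sets were left out. Symbols came from the platform annotation, updated by Entrez identifier (21497 clusters) through RefSeq GRCh38.p14. The brightest cluster by the mean of 6 arrays stood for a gene. Clusters above a log2 signal of 4 on at least 3 arrays were fitted with limma 3.58.1 (lmFit, eBayes, two-sided, 6.91 degrees of freedom) in R 4.3.3, with Benjamini-Hochberg adjustment over all 32540 tested clusters and a threshold of 0.05. The fit was also run on simulated data with independent noise and no error shared across an array. Its outcome is not reported here, and no statement above rests on it. Differences are CONCR siRNA minus control siRNA. No scan dates or batches were given.

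The members, lists and motifs were chosen with earlier results of these data known. Genes named are called members, up to 10 lowest and 10 highest with non-overlapping groups, the 2 brightest and 2 dimmest, those with several clusters, and in each pathway list the called genes or else the 2 with the smallest p. Non-overlapping groups were found for 9 lower genes, all taken, and for 12 higher genes, of which the 10 highest were taken. Other genes named were chosen after their values were seen. Alternatives were a replicate block, median centring, quantile normalization, robust estimation with a trend on signal, no filter, a filter at a log2 signal of 6, the mean of a gene's clusters, 1 cluster per gene, subunits by structure, and leaving out each array.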

Additional observations from a re-analysis of the deposited data

How the results depend on the processing

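The count of mitochondrial ribosomal protein genes called lower was 0 with all clusters and 2 with the filter at a log2 signal of 6, with an intensity trend and robust estimation, and with 1 cluster per gene, and the count called higher was 0 and became 1 with that filter. Both counts were 0 in the other alternatives, leaving out each array included (0 to 0). The filter at 6 removed 11 of the 74 genes. The deviations of same-numbered arrays from their group means correlated at -0.27, -0.16 and -0.08, and 0 of 6 arrays correlated best with their own number. These values show no pairing by replicate number, and they cannot show that same-numbered samples were handled apart. The fit with the replicate number as a block gave 0 calls among the genes, a smallest limma adjusted p of 0.27 (MRPL35), and 0.11 for TFB1M and 0.20 for MIEF1. MIEF1 also lost its call without a filter (0.11). The difference of the large-subunit and small-subunit medians was 0.0342 with the mean of a gene's clusters and 0.0215 to 0.0426 without 1 array, against 0.0507, and it was above 0 in every alternative. MRPS14 changed sign to 0.0082 with the mean of its clusters, whose signs differ. Of 523 values for named genes under the alternatives, 495 kept their direction and their side of the threshold. Without 1 array, the median of the 74 genes ran from -0.00035 to 0.04, of the large subunit from 0.0083 to 0.05 and of the small subunit from -0.02 to 0.0052, against 0.02, 0.03 and -0.02. The first turned negative without CONCR siRNA replicate 1 and the last positive without CONCR siRNA replicate 3 or control replicate 2 (0.0044). These medians therefore depend on single arrays. Causes were not tested.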
